A study of Mus musculus with 12 samples.

Results

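The RNAs described here are those of 34 genes for the making of fatty acids, triglycerides and phospholipids, from the first acetyl-CoA enzymes to phosphatidylcholine synthesis. They were chosen by name, with earlier results of these data known. A gene was measured if the array's annotation gave it a probe set of its own, and where there were several the one with the highest average signal in the series was used. This left 30 of the 34, out of 22180 named genes in all. Scd2, Acsl3 and Cept1 had only probe sets shared with another gene, and Acsl1 had no named probe set, so these were not analysed here. The cells were MLE12, a mouse lung epithelial line from a tumour driven by the SV40 large T antigen under an SFTPC promoter. They were given a lentiviral pLKO.1 shRNA for 12 hours, at 60% confluency, and were collected after 65 hours of subculture. The 4 groups had 3 arrays each: NANCI shRNA, aimed at the long noncoding RNA NANCI, with its scrambled shRNA, and LL34 shRNA, aimed at an RNA named LL34, with its own scrambled shRNA. All groups were infected and had polybrene, and all grew in medium with insulin, hydrocortisone, estradiol and a little serum. The labels do not say how many hairpins were used per target and call replicates biological without saying if each was infected apart. The p-values therefore cover only the variation among these arrays.

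Fatty acid synthesis starts when citrate or acetate is turned into acetyl-CoA. Acetyl-CoA carboxylase then makes malonyl-CoA, and fatty acid synthase builds palmitate, which elongases lengthen and desaturases furnish with double bonds. Acyl-CoA ligases activate the chains. Acyltransferases place them on glycerol phosphate, lipins remove the phosphate, and diacylglycerol goes either to triglyceride or, with activated choline, to phosphatidylcholine. The transcription factor SREBP-1, encoded by Srebf1, switches on many of these genes. Alveolar type 2 cells of the lung use the pathway for surfactant, whose main lipid is phosphatidylcholine.

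Values are log2 signals, and changes are shRNA minus the scrambled group of the same set on the log2 scale. A gene was called at a limma adjusted p under 0.05, taken over all 41345 probe sets. The RNA that the gene table lists under the synonym Nanci, Sfta3-ps, stood at 13.3% of the scrambled level in NANCI shRNA cells (change −2.91, adjusted p = 1.72e-07). It fell in LL34 shRNA cells too, to 62.6% of their scrambled level (change −0.67, adjusted p = 0.00284). The RNA named LL34 was not analysed here. Arrays of a group correlated at 0.986 or higher, and LL34 scrambled replicate 3 had the lowest mean correlation with its own group (0.988). Array medians ran from 6.54 to 6.61 in the LL34 set and from 6.84 to 6.88 in the NANCI set, so the sets may have been normalized apart. In the main fit the sets were tested against one another only through their changes. Levels of both sets are set side by side in places, without a test. An alternative fit used all 6 scrambled arrays as 1 control group and so set each shRNA group against arrays of both sets. In that fit the median change over all named genes was 0.13 after NANCI shRNA and −0.14 after LL34 shRNA. The epithelial genes Nkx2-1, Cdh1, Krt8 and Cldn4 and the type 2 genes Sftpb, Sftpc, Abca3 and Etv5 lay above the median of all probe sets. Epcam and Krt18, 2 of 6 epithelial markers, lay below it. Lamp3, Slc34a2, Lyz2, Napsa, Sftpa1 and Sftpd, 6 of 10 type 2 markers, also lay below it. Fewer cells of a kind and less RNA per cell cannot be told apart in such cultures.

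In a test of the difference itself, 18 of the 30 lipid genes changed differently after the 2 shRNAs. The NANCI change was higher for 11 (36.7%) and lower for 7 (23.3%), beside 12.0% and 12.3% of all named genes. Among named genes at or above the median level of all probe sets these shares were 19.9% and 20.8%. In LL34 shRNA cells 12 of the 30 genes fell and 3 rose, and 9 of the falls lay in chain synthesis, elongation and desaturation, the others being Srebf1, the acyl-CoA ligase gene Acsl5 and the phosphatidylcholine gene Pcyt1b. In NANCI shRNA cells 7 rose and 9 fell, with Lpin1, a phosphatidate phosphatase, at 3.89-fold of the scrambled level and the phosphatidylcholine enzyme Chpt1 at 42.3%. Among all named genes, 10.3% were called lower and 9.77% higher after LL34 shRNA, and 13.6% lower and 13.2% higher after NANCI shRNA. Bright probe sets are called more often, and 27 of the 30 genes were at or above the median level of all probe sets. Among the 12528 named genes at or above it, 16.9% were lower and 16.7% higher after LL34 shRNA, and 22.7% lower and 22.0% higher after NANCI shRNA. Of the lipid genes, 40.0% fell after LL34 shRNA, above both shares, whereas the 23.3% that rose and the 30.0% that fell after NANCI shRNA were nearer to those of the brighter genes. The list was chosen with earlier results of these data known, so these shares are a description and not a test. The median change of the 30 genes was −0.17 after LL34 shRNA, with −0.02 over all named genes, and −0.02 after NANCI shRNA, with 0.0042 over all named genes.

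**Figure D1:**
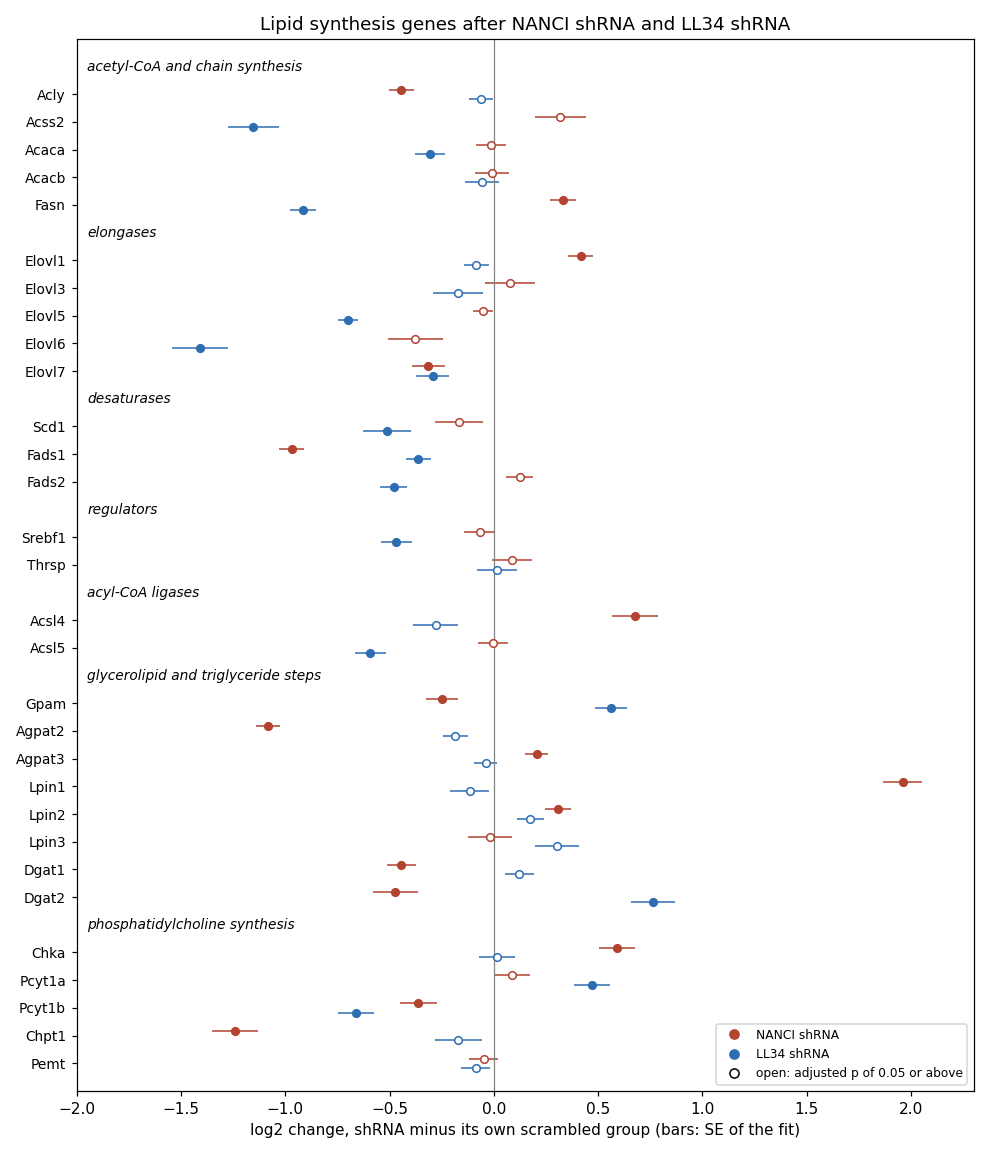
Change of each of the 30 lipid genes (log2, shRNA minus its own scrambled group) after NANCI shRNA and after LL34 shRNA, ordered by step of the pathway, with the SE of the fit and open symbols for genes not called. The LL34 points of Elovl6, Acss2 and Fasn lie at −1.41, −1.15 and −0.91, and the NANCI point of Lpin1 lies at 1.96.

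Because many of these genes fell together after LL34 shRNA, their promoter letters are given: windows from 250 bases before to 50 after the start site were read for 25 of the 30 genes (RefSeq, GRCm38.p6). Exact matches on either strand were sought for 3 motifs: the sterol regulatory element TCACNCCAC of SREBP, the E-box CACGTG, which SREBP-1 can also bind, and CCAAT, the box of NF-Y, a common partner of SREBP. The motifs share no letters with one another in the 5 windows shown. Shown are 3 genes that fell after LL34 shRNA, Lpin1, which rose after NANCI shRNA, and the first of 3 windows of Pcyt1a, the 1 gene with the sterol element, with all matches in capitals. The windows are chr11:120824498-120824797 on the minus strand for Fasn, chr2:155517793-155518092 on the plus strand for Acss2, chr9:77917115-77917414 on the plus strand for Elovl5, chr12:16610917-16611216 on the minus strand for Lpin1 and chr16:32430671-32430970 on the plus strand for Pcyt1a.
Fasn: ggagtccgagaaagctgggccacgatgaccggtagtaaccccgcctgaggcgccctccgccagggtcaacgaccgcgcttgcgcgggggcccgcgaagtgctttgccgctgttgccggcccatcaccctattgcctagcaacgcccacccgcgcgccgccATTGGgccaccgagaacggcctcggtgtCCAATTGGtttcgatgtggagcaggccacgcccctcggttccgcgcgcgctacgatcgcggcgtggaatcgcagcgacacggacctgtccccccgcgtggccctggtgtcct
Acss2: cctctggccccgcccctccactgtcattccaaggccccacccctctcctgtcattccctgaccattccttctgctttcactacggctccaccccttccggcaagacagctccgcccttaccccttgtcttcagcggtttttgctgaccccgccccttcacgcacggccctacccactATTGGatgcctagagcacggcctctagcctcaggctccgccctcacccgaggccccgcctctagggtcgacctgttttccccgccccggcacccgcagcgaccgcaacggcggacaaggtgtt
Elovl5: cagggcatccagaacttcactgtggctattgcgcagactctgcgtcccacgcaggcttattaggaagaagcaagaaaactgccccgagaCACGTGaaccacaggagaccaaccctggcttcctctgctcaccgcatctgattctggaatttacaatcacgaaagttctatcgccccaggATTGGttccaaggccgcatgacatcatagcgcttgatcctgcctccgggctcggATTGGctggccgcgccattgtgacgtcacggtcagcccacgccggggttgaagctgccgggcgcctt
Lpin1: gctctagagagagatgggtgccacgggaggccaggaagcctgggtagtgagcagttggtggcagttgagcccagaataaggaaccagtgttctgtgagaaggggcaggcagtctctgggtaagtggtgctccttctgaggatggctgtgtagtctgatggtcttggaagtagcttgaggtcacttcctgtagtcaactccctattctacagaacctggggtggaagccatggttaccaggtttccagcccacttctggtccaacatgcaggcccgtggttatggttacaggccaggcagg
Pcyt1a: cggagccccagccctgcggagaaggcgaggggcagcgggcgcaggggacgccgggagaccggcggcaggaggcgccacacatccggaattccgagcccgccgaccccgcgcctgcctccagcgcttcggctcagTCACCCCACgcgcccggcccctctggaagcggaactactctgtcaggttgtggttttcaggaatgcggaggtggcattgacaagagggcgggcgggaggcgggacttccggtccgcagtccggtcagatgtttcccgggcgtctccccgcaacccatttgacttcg
Fasn held CCAAT at 3 places, a pair of them overlapping on opposite strands, Elovl5 held it at 2 beside an E-box, and Acss2 at 1. The Lpin1 window held none of the 3 motifs. Neither did the windows, not shown, of Elovl6, Acaca, Elovl7 and Fads2, which fell after LL34 shRNA. Of the 10 genes with a window that fell after LL34 shRNA, 6 had CCAAT, 1 an E-box and 0 the sterol element, against 9, 2 and 1 of the other 15 genes. Over all 27025 genes with windows, 41.1% had CCAAT, 8.09% an E-box and 1.44% the sterol element, and per window these shares were 37.4%, 7.15% and 1.24%. A match is a description of letters and not a binding site, and a missing match says only that these letters are not in this window.

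Fatty acid synthase (Fasn), which builds palmitate, changed in opposite directions after the 2 shRNAs. It measured 11.21, 11.22 and 11.20 on LL34 shRNA arrays, against 12.10, 12.16 and 12.12 on their scrambled arrays. The groups lay far apart, and the change of −0.91 (SE 0.0623, adjusted p = 5.89e-06) left 53.0% of the scrambled level. In the NANCI set it measured 12.18, 12.01 and 11.97 with shRNA, against 11.75, 11.76 and 11.66 with scrambled shRNA. All NANCI shRNA arrays were above all scrambled ones, with a rise of 0.33 (SE 0.0623, adjusted p = 0.00271). Against all 6 scrambled arrays as 1 control group, Fasn measured −0.71 after LL34 shRNA (adjusted p = 0.00318) and 0.13 after NANCI shRNA (adjusted p = 0.475), which ended the NANCI call.

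Acss2, which makes acetyl-CoA from acetate, fell after LL34 shRNA as well. Its signals were 7.82, 7.59 and 7.61 with LL34 shRNA, against 9.09, 8.80 and 8.59 with scrambled shRNA, so the groups did not overlap. The change was −1.15 (SE 0.123, adjusted p = 0.000109), or 45.0% of the scrambled level. With NANCI shRNA they were 8.51, 8.37 and 8.28, against 8.04, 8.21 and 7.96 with scrambled shRNA, groups that did not overlap but whose difference of 0.32 missed the threshold (adjusted p = 0.105). Without LL34 scrambled replicate 1 or 3 that NANCI value passed, at adjusted p of 0.0455 and 0.0473. Acly, which makes acetyl-CoA from citrate, fell by 0.44 after NANCI shRNA (adjusted p = 0.000257) and measured −0.06 after LL34 shRNA (adjusted p = 0.591). Acaca, the cytosolic carboxylase that commits acetyl-CoA to synthesis, fell by 0.31 after LL34 shRNA (adjusted p = 0.0141). This call was lost without LL34 shRNA replicate 1 or 3 or LL34 scrambled replicate 2 (adjusted p from 0.0555 to 0.0602) and in a fit of the 6 LL34 arrays alone (adjusted p = 0.0593). Acacb, the mitochondrial carboxylase, measured −0.06 after LL34 shRNA and −0.0075 after NANCI shRNA, and was called in neither.

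Elovl6, the elongase that turns palmitate into stearate, had the lowest change of the 30 genes after LL34 shRNA. It measured 9.71, 9.77 and 9.60 with LL34 shRNA, against 11.20, 11.35 and 10.75 with scrambled shRNA. The shRNA arrays lay close together and below every scrambled array, of which replicate 3 was the lowest. The change of −1.41 (SE 0.133, adjusted p = 4.81e-05) left 37.7% of the scrambled level. In the NANCI set Elovl6 measured 9.57, 9.69 and 9.79 with shRNA, against 10.18, 9.97 and 10.03 with scrambled shRNA (−0.38, adjusted p = 0.0758). That value passed in a fit of the 6 NANCI arrays alone (adjusted p = 0.024) and without LL34 scrambled replicate 2 (0.0459) or 3 (0.00707). The mean of the scrambled arrays was 11.10 in the LL34 set and 10.06 in the NANCI set, while the shRNA arrays averaged 9.69 and 9.68 in these sets. With all 6 scrambled arrays as 1 control group Elovl6 measured −0.89 after LL34 shRNA (adjusted p = 0.0707) and −0.90 after NANCI shRNA (adjusted p = 0.0553), so the LL34 call was lost.

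The elongase of polyunsaturated chains, Elovl5, fell after LL34 shRNA with little spread between arrays. Its values were 10.70, 10.64 and 10.69 with LL34 shRNA, against 11.37, 11.41 and 11.35 with scrambled shRNA. The groups were well separated, and the change of −0.70 (SE 0.0483, adjusted p = 6.15e-06) left 61.5%. After NANCI shRNA it measured 11.63, 11.61 and 11.56, against 11.62, 11.68 and 11.65 in scrambled cells, and these groups overlapped (−0.05, adjusted p = 0.597). Elovl1, an elongase of very long saturated chains, rose by 0.42 after NANCI shRNA (adjusted p = 0.00047) and measured −0.08 after LL34 shRNA (adjusted p = 0.451). The Elovl1 rise measured 0.20 and lost its call (adjusted p = 0.298) against all 6 scrambled arrays. Elovl7, which also lengthens long saturated chains, fell by 0.29 after LL34 shRNA (adjusted p = 0.0247) and by 0.31 after NANCI shRNA (adjusted p = 0.0139). Both Elovl7 calls rested on single arrays: the LL34 one was lost without any 1 of LL34 shRNA replicates 1 and 2 and LL34 scrambled replicates 1 and 2 (adjusted p from 0.0611 to 0.0902), and the NANCI one without NANCI shRNA replicate 2 (0.0596) or NANCI scrambled replicate 1 (0.0547). The LL34 value of Elovl7 was −0.11 against all 6 scrambled arrays (adjusted p = 0.514). Elovl3 was called in neither comparison and lay below the median of all probe sets, as did Acacb and Thrsp.

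All 3 measured desaturases fell after LL34 shRNA, and 1 of them fell after NANCI shRNA. Fads1, which adds a double bond to polyunsaturated chains on the way to arachidonate, measured 11.24, 11.31 and 11.16 with NANCI shRNA, against 12.25, 12.20 and 12.15 with scrambled shRNA. The groups were about 1 log2 unit apart (−0.97, SE 0.0601, adjusted p = 1.42e-06), which left 51.1%. With LL34 shRNA Fads1 measured 11.79, 11.76 and 11.66, against 12.09, 12.14 and 12.06 with scrambled shRNA (−0.36, SE 0.0601, adjusted p = 0.00178). The fall was larger after NANCI shRNA (difference −0.61, SE 0.0851, adjusted p = 0.000456). Fads2, the desaturase of the preceding step, fell by 0.48 after LL34 shRNA (adjusted p = 0.000488) and measured 0.12 after NANCI shRNA (adjusted p = 0.255). Scd1, which makes monounsaturated chains, fell by 0.51 after LL34 shRNA (adjusted p = 0.0111) and measured −0.17 after NANCI shRNA (adjusted p = 0.424). Scd1 measured −0.34 after LL34 shRNA with all 6 scrambled arrays as control, and its call was lost (adjusted p = 0.125).

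Srebf1, the gene of SREBP-1, fell by 0.47 after LL34 shRNA (SE 0.0749, adjusted p = 0.00142), to 72.3% of the scrambled level, and measured −0.07 after NANCI shRNA (adjusted p = 0.658). The difference between these changes was 0.40 (adjusted p = 0.0211). It was lost without NANCI shRNA replicate 1, NANCI scrambled replicate 3 or LL34 shRNA replicate 2 (adjusted p from 0.0524 to 0.0561). Thrsp, a lipogenic regulator of liver and fat, measured 0.01 after LL34 shRNA and 0.09 after NANCI shRNA and was called in neither. Acsl4, an acyl-CoA ligase that prefers arachidonate, measured 9.89, 9.89 and 10.07 with NANCI shRNA, against 9.35, 9.20 and 9.27 with scrambled shRNA. These groups did not overlap, and Acsl4 rose by 0.68 (SE 0.108, adjusted p = 0.000882). With LL34 shRNA it measured 9.68, 9.71 and 9.63, against 10.07, 10.12 and 9.67 with scrambled shRNA, where replicate 3 alone lay within reach of the shRNA arrays (−0.28, adjusted p = 0.117). Without that LL34 scrambled replicate 3 the value was −0.42 (adjusted p = 0.00321), and with all 6 scrambled arrays as control the NANCI rise was 0.34 (adjusted p = 0.261). The mitochondrial and ER ligase gene Acsl5 fell by 0.59 after LL34 shRNA (adjusted p = 0.00029) and measured −0.0031 after NANCI shRNA (adjusted p = 0.988). Against all 6 scrambled arrays the LL34 value of Acsl5 was −0.25 (adjusted p = 0.356).

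Of the 8 genes for glycerolipid and triglyceride steps, 3 rose and 4 fell after NANCI shRNA, while 2 rose and 0 fell after LL34 shRNA. Lpin1, the lipin that also acts in the nucleus as a coactivator of fatty acid oxidation genes, measured 10.28, 9.99 and 10.23 with NANCI shRNA, against 8.18, 8.23 and 8.20 with scrambled shRNA. Every NANCI shRNA array was far above every other array of the series, and the change was 1.96 (SE 0.0939, adjusted p = 3.64e-07). With LL34 shRNA Lpin1 measured 8.18, 8.06 and 8.16, against 8.37, 8.32 and 8.06 with scrambled shRNA, and these groups overlapped (−0.12, adjusted p = 0.505). Its paralogues moved less: Lpin2 rose by 0.31 after NANCI shRNA (adjusted p = 0.00516) and measured 0.17 after LL34 shRNA (adjusted p = 0.0969). A dimmer second probe set of Lpin2 measured 0.04 after NANCI shRNA (adjusted p = 0.96) and 0.64 after LL34 shRNA (adjusted p = 0.157), and the mean of both measured 0.17 after NANCI shRNA (adjusted p = 0.41) and 0.41 after LL34 shRNA (adjusted p = 0.0385). The Lpin2 rise after NANCI shRNA was also lost against all 6 scrambled arrays (0.19, adjusted p = 0.191). Lpin3 was called in neither comparison, at −0.02 after NANCI shRNA and 0.30 after LL34 shRNA (adjusted p = 0.0842). The LL34 value of Lpin3 passed in a fit of the 6 LL34 arrays alone (adjusted p = 0.0341) and without NANCI shRNA replicate 3 (adjusted p = 0.0098).

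Agpat2, which acylates lysophosphatidate and is needed for fat tissue, measured 8.55, 8.49 and 8.50 with NANCI shRNA, against 9.57, 9.63 and 9.58 with scrambled shRNA. Both groups were tight and far apart, and the change of −1.08 (SE 0.0579, adjusted p = 6.92e-07) left 47.2%. With LL34 shRNA it measured 9.48, 9.40 and 9.38, against 9.62, 9.68 and 9.51 with scrambled shRNA (−0.18, adjusted p = 0.0535). That value passed without LL34 scrambled replicate 3 (−0.23, adjusted p = 0.0206). Agpat3, another acyltransferase of the same step, rose by 0.21 after NANCI shRNA (adjusted p = 0.0232), but not without NANCI shRNA replicate 1 or 3 or NANCI scrambled replicate 1 or 3 (adjusted p from 0.0561 to 0.0885). Agpat3 measured −0.04 after LL34 shRNA (adjusted p = 0.742).

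Dgat2, which makes triglyceride from newly formed chains, moved in opposite directions after the 2 shRNAs. It measured 8.62, 8.33 and 8.52 with LL34 shRNA, against 7.68, 7.84 and 7.66 with scrambled shRNA. The groups did not overlap, and the change was 0.76 (SE 0.107, adjusted p = 0.000633), or 1.70-fold. With NANCI shRNA it measured 8.22, 7.92 and 7.88, against 8.47, 8.37 and 8.60 with scrambled shRNA, a fall of 0.47 (SE 0.107, adjusted p = 0.00849). Gpam, the mitochondrial enzyme of the first acylation of glycerol phosphate, rose by 0.56 after LL34 shRNA (adjusted p = 0.000514) and fell by 0.25 after NANCI shRNA (adjusted p = 0.0411). The Gpam fall was lost without any 1 of NANCI shRNA replicates 2 and 3, NANCI scrambled replicates 2 and 3, LL34 shRNA replicate 1 and LL34 scrambled replicates 1 and 2 (adjusted p from 0.0529 to 0.14). It was also lost with arrays centred on their medians (0.0627) and in a fit of the 6 NANCI arrays alone (0.0596). Both genes had unlike scrambled groups, with means of 7.73 in the LL34 set and 8.48 in the NANCI set for Dgat2, and 8.94 and 9.74 for Gpam. Against all 6 scrambled arrays Dgat2 measured 0.39 after LL34 shRNA (adjusted p = 0.23) and −0.09 after NANCI shRNA (adjusted p = 0.772), and Gpam measured 0.16 after LL34 shRNA (adjusted p = 0.599) and 0.15 after NANCI shRNA (adjusted p = 0.637). Dgat1, the other enzyme of this last step, fell by 0.44 after NANCI shRNA (adjusted p = 0.000803) and measured 0.12 after LL34 shRNA (adjusted p = 0.31).

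In phosphatidylcholine synthesis the first and the last enzyme moved in opposite directions after NANCI shRNA. Chka, the choline kinase of the first step, measured 9.95, 9.87 and 10.20 with NANCI shRNA, against 9.31, 9.45 and 9.50 with scrambled shRNA. All shRNA arrays were above all scrambled arrays, with a rise of 0.59 (SE 0.0875, adjusted p = 0.000527). The second, dimmer probe set of Chka measured 0.10 (adjusted p = 0.759). With LL34 shRNA Chka measured 9.50, 9.44 and 9.56, against 9.51, 9.53 and 9.41 with scrambled shRNA, and the groups overlapped (0.02, adjusted p = 0.945). Chpt1, the choline phosphotransferase of the last step, measured 6.81, 6.90 and 6.89 with NANCI shRNA, against 8.26, 7.88 and 8.17 with scrambled shRNA. All shRNA arrays lay well below the scrambled ones, and the change was −1.24 (SE 0.113, adjusted p = 1.71e-05). Chpt1 measured 8.20, 8.33 and 8.05 with LL34 shRNA, against 8.43, 8.49 and 8.18 with scrambled shRNA, where the groups overlapped (−0.17, adjusted p = 0.395).

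Both Pcyt1 enzymes, which make CDP-choline and set the pace of the middle step, changed after LL34 shRNA in opposite directions. Pcyt1b measured 6.99, 6.89 and 6.96 with LL34 shRNA, against 7.78, 7.61 and 7.43 with scrambled shRNA. These groups did not overlap (−0.66, SE 0.088, adjusted p = 0.00045). In the NANCI set Pcyt1b measured 6.96, 6.84 and 6.90 with shRNA, against 7.33, 7.14 and 7.30 with scrambled shRNA, a fall of 0.36 (SE 0.088, adjusted p = 0.0127). The NANCI call was lost without NANCI shRNA replicate 2 (adjusted p = 0.0507) or NANCI scrambled replicate 1 (0.0537). Pcyt1a, the widely expressed form, rose by 0.47 after LL34 shRNA (SE 0.0865, adjusted p = 0.00342) and measured 0.09 after NANCI shRNA (adjusted p = 0.602). Pemt, which makes phosphatidylcholine by methylating phosphatidylethanolamine, mainly in liver, measured −0.09 after LL34 shRNA and −0.05 after NANCI shRNA and was called in neither.

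**Figure D2:**
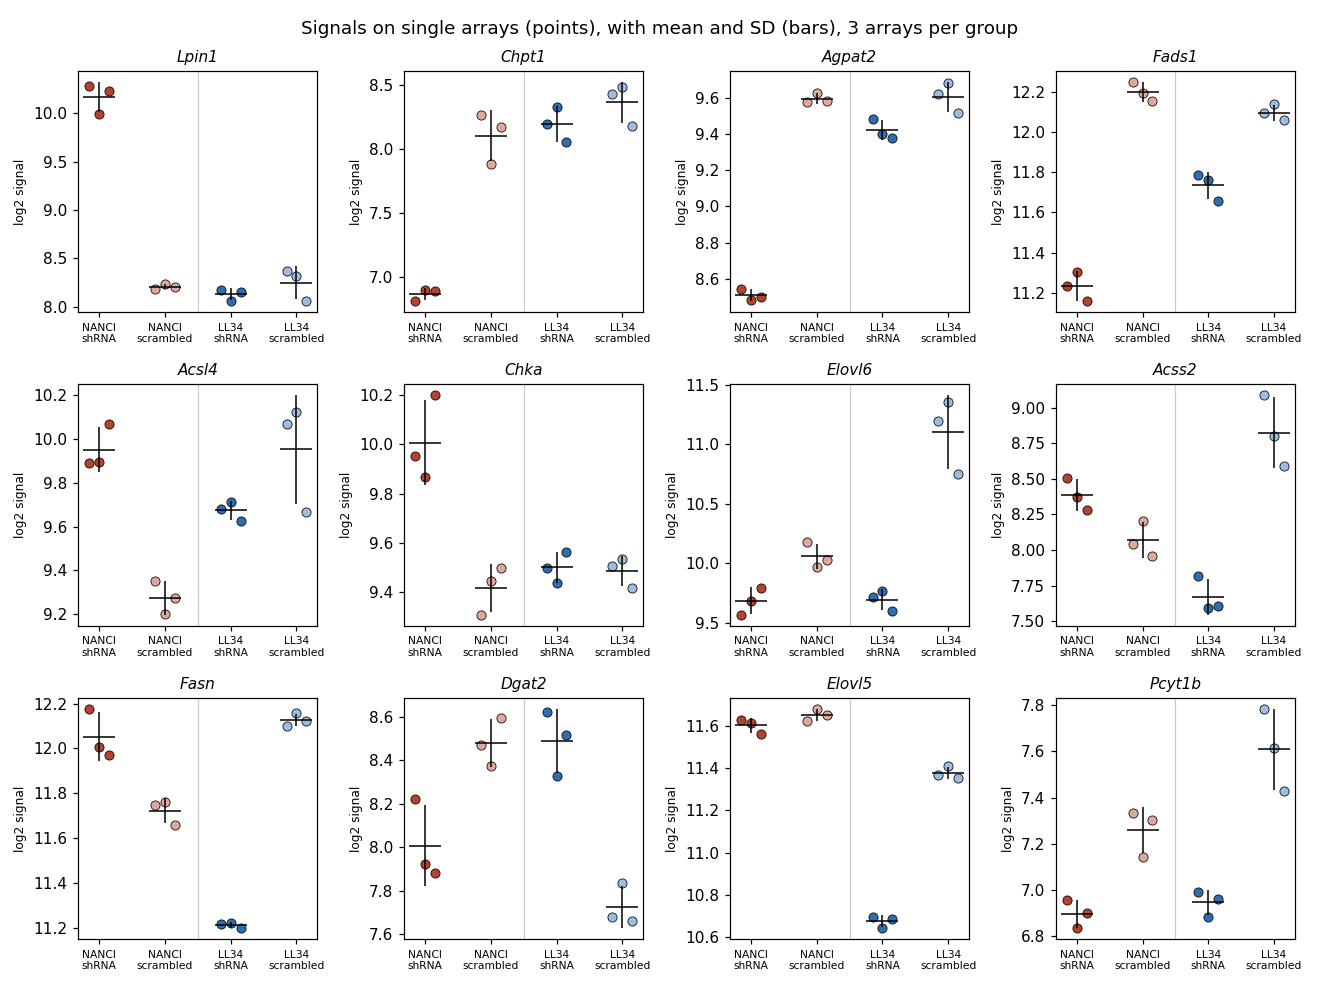
Log2 signal on each array (points) with mean and SD (bars) for 12 lipid genes, those among the 6 largest called changes of a comparison or of the difference, in NANCI shRNA, NANCI scrambled, LL34 shRNA and LL34 scrambled cells, 3 arrays each, with a vertical scale of its own in each panel. Lpin1 stands between 9.99 and 10.28 in NANCI shRNA cells alone, and the LL34 scrambled arrays of Elovl6 (10.75 to 11.35) lie above the other 3 groups.

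The 2 responses themselves were compared, which used no common array. The NANCI change was higher than the LL34 change for 11 of the 30 genes and lower for 7, and 12.0% and 12.3% of all named genes were called in these directions (19.9% and 20.8% of those at or above the median level). Lpin1 differed by 2.08 (SE 0.133), Acss2 by 1.47 (SE 0.174), Fasn by 1.24 (SE 0.0882) and Elovl6 by 1.03 (SE 0.188), with adjusted p from 2.68e-06 to 0.00249. Dgat2 differed by −1.23 (SE 0.152, adjusted p = 0.000183) and Chpt1 by −1.07 (SE 0.159, adjusted p = 0.00066). Read by single genes, 1 gene rose after NANCI shRNA and fell after LL34 shRNA (Fasn), 2 did the reverse (Dgat2, Gpam), 3 fell after both (Fads1, Elovl7, Pcyt1b) and 5 were called in neither (Acacb, Elovl3, Thrsp, Lpin3, Pemt). Elovl7 and Pcyt1b differed by −0.02 (adjusted p = 0.942) and 0.30 (adjusted p = 0.135), which missed the threshold.

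The scrambled groups of the 2 sets did not stand alike for the lipid genes. Over all 30 lipid genes the LL34 scrambled mean minus the NANCI scrambled mean had a median of 0.14, with −0.23 over all named genes. Of the 30, 22 lay above that −0.23. For the 12 genes that fell after LL34 shRNA the median was 0.34, and 10 of the 12 lay above that −0.23. These 12 were picked by a fall from the LL34 scrambled level, so a high level there is partly built in. The LL34 shRNA mean minus the NANCI shRNA mean had a median of −0.12 for the same genes, with −0.27 over all named genes. Between these levels of the 2 sets no test was made, since set and normalization cannot be told apart. The fit with all 6 scrambled arrays as 1 control group does mix the sets, so differences between the sets enter its changes and spread. The SE of Elovl6 after LL34 shRNA was 0.133 in the main fit and 0.286 in that fit. For Lpin1 after NANCI shRNA it was 0.0939 and 0.0889. A call lost in that fit was thus not told apart from a difference between the sets. With all 6 scrambled arrays as 1 control group, the median change over all named genes was −0.14 after LL34 shRNA and 0.13 after NANCI shRNA. Under that setting 8 of the 12 falls and 1 of the 3 rises after LL34 shRNA passed the threshold again. So did 7 of the 9 falls and 3 of the 7 rises after NANCI shRNA. The falls that passed after LL34 shRNA were Fasn, Acaca, Acss2, Elovl5, Fads1, Fads2, Srebf1 and Pcyt1b. The rises that passed after NANCI shRNA were Lpin1, Chka and Agpat3.

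Of 113 other lipid genes listed, 106 were measured, and 34 rose and 21 fell after NANCI shRNA, while 14 rose and 25 fell after LL34 shRNA. The rises and falls after NANCI shRNA are 32.1% and 19.8% of the 106, beside 13.2% and 13.6% of all named genes and 22.0% and 22.7% of those at or above the median level. After LL34 shRNA they are 13.2% and 23.6% of the 106, beside 9.77% and 10.3% of all named genes and 16.7% and 16.9% of those at or above the median level. The falls after NANCI shRNA and the rises after LL34 shRNA thus lay above the shares of all named genes and below those of the brighter genes. The 106 genes were not limited to brighter ones. Their median change was 0.01 after NANCI shRNA and −0.04 after LL34 shRNA. After NANCI shRNA the lipid droplet coat gene Plin2 rose by 1.30 (SE 0.0734, adjusted p = 8.74e-07), the fatty acid carrier gene Fabp4 by 1.26 (SE 0.143, adjusted p = 8.06e-05) and Abhd5, the activator of droplet lipolysis, by 0.92 (SE 0.0728, adjusted p = 7.20e-06). Fabp4 was dim, at 6.32, 6.32 and 5.67 on NANCI shRNA arrays, all below the median of all probe sets (6.72). Cds1, which turns phosphatidate into CDP-diacylglycerol, fell by 1.40 (SE 0.127, adjusted p = 1.68e-05), the lysophospholipid acyltransferase gene Lclat1 by 0.88 (SE 0.0906) and the acyl-CoA ligase gene Acsl6 by 0.75 (SE 0.0649). After LL34 shRNA, Idh1, a cytosolic source of NADPH, fell by 1.43 (SE 0.12, adjusted p = 2.21e-05), the desaturase gene Scd4 by 1.23 (SE 0.0795) and Insig1, which holds SREBP in the ER, by 1.11 (SE 0.0847). Lclat1 rose by 0.86 (SE 0.0906), Hadhb, a subunit of the mitochondrial trifunctional protein, by 0.74 (SE 0.15) and the coactivator gene Ppargc1a by 0.71 (SE 0.169, adjusted p = 0.0142). Idh1 fell after NANCI shRNA too (−0.67, adjusted p = 0.00191), and its scrambled means were 10.82 in the LL34 set and 9.49 in the NANCI set. Scd4 was dim, with a mean of 6.36 over all arrays, below the median of all probe sets.

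By branch, 9 of 18 fatty acid oxidation genes rose and 2 fell after NANCI shRNA, with 4 rises and 5 falls after LL34 shRNA. Of 17 droplet and lipolysis genes, 5 rose and 1 fell after NANCI shRNA, and 1 rose and 3 fell after LL34 shRNA. Among 16 other glycerolipid acyltransferases, 8 rose and 2 fell after NANCI shRNA, against 2 rises and 3 falls after LL34 shRNA. Of 6 genes supplying citrate, NADPH and malonyl-CoA, 3 rose and 1 fell after NANCI shRNA, and 0 rose and 4 fell after LL34 shRNA. Other branches leaned down or were mixed after NANCI shRNA. Of 11 other genes of the elongation cycle 2 rose and 4 fell after NANCI shRNA, and 1 rose and 5 fell after LL34 shRNA. In the phosphatidylethanolamine, serine, inositol and cardiolipin branches, 4 of 12 genes rose and 5 fell after NANCI shRNA, and 3 rose and 2 fell after LL34 shRNA. Among 6 choline uptake genes 0 rose and 2 fell after NANCI shRNA, and 0 rose and 1 fell after LL34 shRNA. Of 11 regulators 1 rose and 2 fell after NANCI shRNA, and 2 rose and 2 fell after LL34 shRNA. Among 9 other ligases and carriers 2 rose and 2 fell after NANCI shRNA, and 1 rose and 0 fell after LL34 shRNA. No test was made of any of these lists, whose counts are small and are to be read against the shares of other genes. After NANCI shRNA 13.2% of all named genes rose and 13.6% fell, and 22.0% and 22.7% of those at or above the median level. After LL34 shRNA these shares were 9.77% and 10.3%, and 16.7% and 16.9%.

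**Figure D3:**
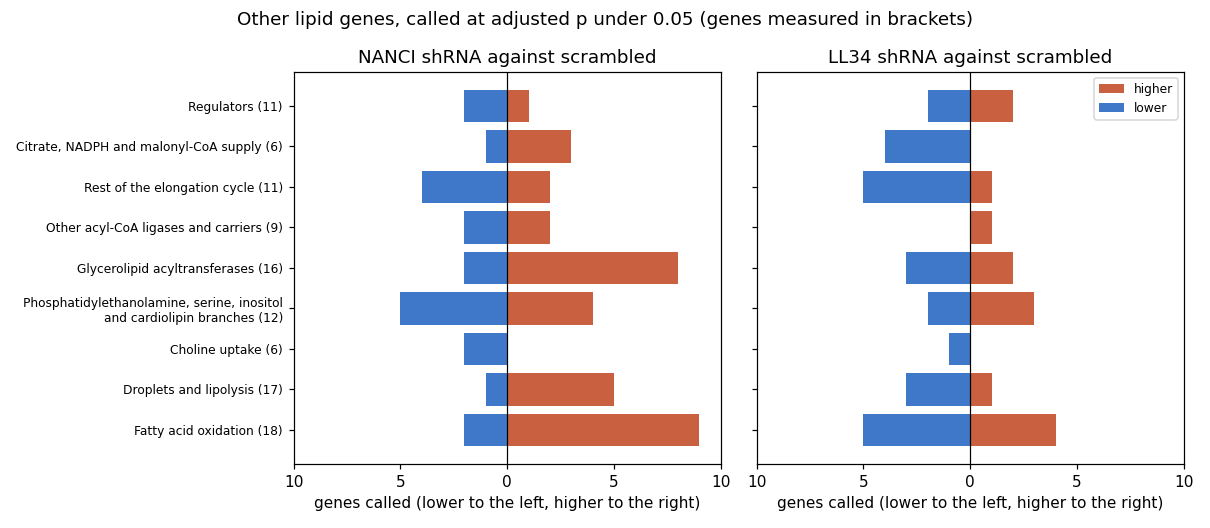
Number of other lipid genes called higher (to the right) and lower (to the left) after NANCI shRNA and after LL34 shRNA, by branch, with the number measured in brackets. Fatty acid oxidation has 9 rises after NANCI shRNA, and the supply branch has 0 rises and 4 falls after LL34 shRNA.

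Epithelial and other cell markers are given beside these results. Of 6 epithelial markers 1 rose and 3 fell after NANCI shRNA, and 1 rose and 2 fell after LL34 shRNA, with Nkx2-1 and Krt8 lower after both. Of 10 type 2 markers, Etv5 rose after both shRNAs, Abca3, the surfactant lipid transporter, fell by 1.24 after NANCI shRNA, and after LL34 shRNA Sftpb rose and Sftpc fell. The type 2 sums ran from 73.4 to 73.8 in NANCI shRNA cells and from 74.8 to 75.7 in scrambled cells, and from 70.7 to 71.9 in LL34 shRNA cells and from 71.6 to 72.2 in scrambled cells. The epithelial sums ran from 50.4 to 50.8 in NANCI shRNA cells and from 52.7 to 53.1 in scrambled cells, and from 51.0 to 51.4 in LL34 shRNA cells and from 52.3 to 53.0 in scrambled cells. Of 7 adipocyte markers, Fabp4, also among the other lipid genes above, alone rose after NANCI shRNA and none was called after LL34 shRNA, and 6 of the 7 lay below the median of all probe sets. Their summed log2 signal ran from 43.6 to 44.4 in NANCI shRNA cells and from 42.5 to 43.3 in scrambled cells, and from 38.9 to 39.1 in LL34 shRNA cells and from 39.1 to 40.2 in scrambled cells. Of 7 fibroblast markers 1 fell after NANCI shRNA (Dcn) and 0 changed after LL34 shRNA. Their sums ran from 51.6 to 52.3 in NANCI shRNA cells and from 52.6 to 53.7 in scrambled cells, and from 50.9 to 51.0 in LL34 shRNA cells and from 50.7 to 52.2 in scrambled cells. Tek fell after both shRNAs among 5 endothelial markers, and Cd68 rose after NANCI shRNA among 5 leukocyte markers. The endothelial sums ran from 33.4 to 33.7 in NANCI shRNA cells and from 34.5 to 34.8 in scrambled cells, and from 30.8 to 31.0 in LL34 shRNA cells and from 32.1 to 32.4 in scrambled cells. The leukocyte sums ran from 33.0 to 33.3 in NANCI shRNA cells and from 32.1 to 32.6 in scrambled cells, and from 30.7 to 31.1 in LL34 shRNA cells and from 31.2 to 32.0 in scrambled cells. The adipocyte, fibroblast, endothelial and leukocyte lists each had 1 call after NANCI shRNA. These were Fabp4 (1.26), Dcn (−0.91), Tek (−1.05) and Cd68 (0.88). The separated sums of these lists thus do not show a shift of whole lists. The part of all these cell markers in the lipid gene changes was not tested.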

How the data were processed

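RNA of 12 MLE12 cultures was measured on 1-colour Affymetrix arrays. The table the authors deposited holds log2 values for each probe set. Oligo, RMA and limma were used to make it, per the submitters' processing notes, but their versions and order were not given in the sources used here. From them, limma 3.58.1 in R 4.3.3 fitted 4 group means to all 12 arrays (8 residual and 2.84 prior degrees of freedom), with Benjamini-Hochberg adjustment across 41345 probe sets. The fit was tested on simulated data. No detection calls are given with the values, and the number of arrays limits the precision. Probe sets were named through the platform annotation: 23521 had 1 symbol, 1814 several and 16010 none. All measured lipid genes are named. Signals on single arrays are given for the 6 largest called changes of each comparison and of the difference, and up to 3 other lipid genes are named per comparison and direction. Members and lists were chosen with earlier results of these data known. In the LL34 set 464 probe sets of the shRNA group and 212 of the scrambled group had 1 value on all 3 arrays. None of them belonged to the 30 lipid genes. They included the other lipid genes Agpat1, in the LL34 shRNA group, and Slc27a2, in both LL34 groups. Alternatives were other normalizations, filters, weights, samples and controls. Promoter windows were read with Python 3.11.15.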

Additional observations from a re-analysis of the deposited data

Results flagged for a closer look

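For 18 of the 30 lipid genes the change after NANCI shRNA differed from the change after LL34 shRNA in a limma test of the difference itself (NANCI change minus LL34 change, adjusted p under 0.05). In that test 12.0% of all named genes were called higher and 12.3% lower. Among those at or above the median level of all probe sets, the shares were 19.9% and 20.8%. The NANCI change was the higher one for Lpin1 (2.08), Acss2 (1.47), Fasn (1.24), Elovl6 (1.03), Acsl4 (0.96) and Elovl5 (0.65). It was also the higher one for Fads2 (0.60), Acsl5 (0.59), Chka (0.58), Elovl1 (0.50) and Srebf1 (0.40). Of these, Elovl6, Elovl5, Acsl5 and Srebf1 did not rise after NANCI shRNA, at −0.38, −0.05, −0.0031 and −0.07. The NANCI change was the lower one for Acly (−0.38), Dgat1 (−0.57), Fads1 (−0.61), Gpam (−0.81), Agpat2 (−0.90), Chpt1 (−1.07) and Dgat2 (−1.23). The Chka difference was 0.28 with the mean of its probe sets and lost its call (adjusted p = 0.119). Groups of 3 arrays are too small for a test of single outlying arrays.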

How the results depend on the processing

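Of 49 calls made on single lipid genes in the 3 comparisons, 31 passed the threshold under every alternative run, and 40 did so under every one other than a common control group of all 6 scrambled arrays. That setting moved the median change over all named genes from 0.0042 to 0.13 after NANCI shRNA and from −0.02 to −0.14 after LL34 shRNA. It kept 19 of 31 calls and reversed 1, Gpam after NANCI shRNA, to 0.15. Under it the count of lipid genes that rose was 3 after NANCI shRNA and 1 after LL34 shRNA, and the count of other lipid genes that rose after LL34 shRNA was 6. After LL34 shRNA, 5 lipid genes and 22 other lipid genes rose with array weights, 5 lipid genes rose with the mean of all probe sets of a gene, and 9 other lipid genes rose in the fit of the 6 arrays alone. The cause of these shifts was not tested. All other counts over lists stayed within 1.5 times those reported. Leaving out 1 array at a time gave 6 to 8 rises and 6 to 10 falls after NANCI shRNA, 3 to 4 rises and 10 to 14 falls after LL34 shRNA, and 10 to 14 higher and 7 to 8 lower genes in the difference. Same-numbered arrays did not deviate together from their group means (r between −0.06 and 0.01 for NANCI arrays and between −0.12 and 0.05 for LL34 arrays), so the numbers were not taken to pair samples. With the replicate number as a block, 6 lipid genes rose and 8 fell after NANCI shRNA, 3 rose and 11 fell after LL34 shRNA, and 10 were higher and 7 lower in the difference. Of the 49 calls 45 passed with the block, and the 4 lost were Elovl7 after LL34 shRNA (adjusted p = 0.0731), Gpam (0.101) and Agpat3 (0.0825) after NANCI shRNA, and the difference of Srebf1 (0.0608). Under the block 33 other lipid genes rose and 18 fell after NANCI shRNA, and 11 rose and 18 fell after LL34 shRNA.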
